A study of Mus musculus with 6 samples.

Results

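The genes described here are 8 surface molecules through which neutrophils hold on to vessel walls, matrix and each other: Icam1, Icam2, Selplg, Jaml, Pecam1, Ceacam1, Cd44 and Cd177. They were found by symbol among the 53090 rows of each count file, and all 8 were present as a single row. RNA came from cells bearing Ly6G, a surface protein of mouse neutrophils, taken with magnetic beads from the liver (3 libraries, after a Percoll gradient) or from the blood (3 libraries, after lysis of red cells). All 6 libraries came from mice on a diet with DDC (3,5-diethoxycarbonyl-1,4-dihydrocollidine), which is known to injure bile ducts, so both groups carry the treatment and no untreated animals were analysed here. The labels name no genotype, strain, sex, age or length of the diet. They call the liver cells infiltrating, without saying how cells inside the vessels were removed. Each library held 13054673 to 17579669 expected counts.

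A circulating neutrophil is first slowed by selectins on the vessel wall, which bind sugar-decorated proteins on the neutrophil such as PSGL-1 and CD44. Firm arrest follows when the integrins LFA-1 and Mac-1 grip ICAM proteins, and passage through the wall uses molecules of the cell junctions such as PECAM1 and the JAM family. In the narrow sinusoids of the liver, adhesion relies less on selectins than elsewhere, and the binding of CD44 to hyaluronan is known to hold neutrophils there. Neutrophils can also make ICAM1 themselves when activated.

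Of the 8 genes, Icam1 was higher in liver and Selplg, Jaml and Cd177 were lower, whereas Icam2, Pecam1, Ceacam1 and Cd44 did not pass the test. All 8 had enough counts to be tested, by edgeR's quasi-likelihood test with Benjamini-Hochberg adjustment over all genes. Calls required an adjusted p below 0.05. Calls made up 31.6% of the 13458 genes tested, 17.4% being higher and 14.2% lower, so 4 calls of 8 stand beside a background of almost 1 in 3. The median log2 fold change was -0.38 over the 8 genes and 0.04 over all tested genes. With liver 3 and blood 1 both left out, the libraries highest in Kupffer cell and in platelet markers, the count was 1 higher and 2 lower.

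**Figure D1:**
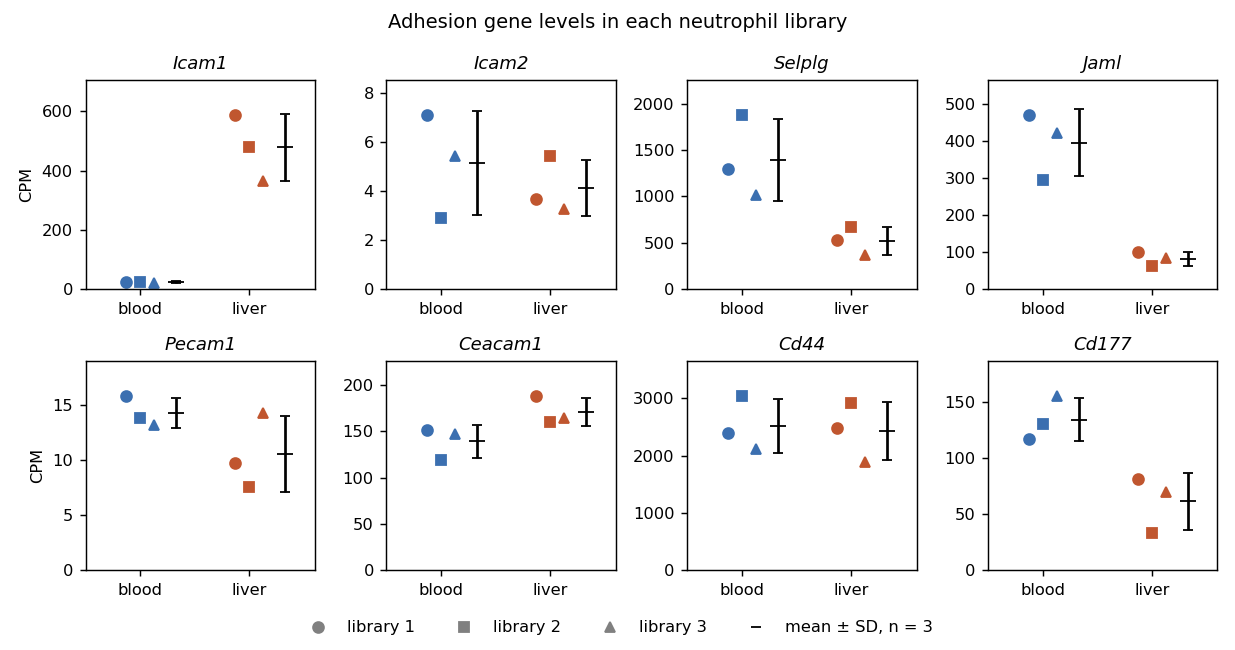
CPM (counts scaled to library size) of each adhesion gene in the 3 blood (blue) and 3 liver (orange) libraries, on linear axes that start at 0, with symbols for the library number and black bars for mean ± SD. The Icam1 points of liver, from 365 to 589 CPM, all stand above those of blood, and the liver points of Selplg, Jaml and Cd177 all stand below the blood points.

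Icam1 encodes the intercellular adhesion molecule gripped by LFA-1 and Mac-1, and lies on chromosome 9 from 21015985 to 21028817 on the forward strand (GRCm38). Its levels were 589, 480 and 365 CPM in liver 1, 2 and 3 and 25.1, 24 and 21.2 CPM in blood 1, 2 and 3. The groups lay far apart, with a spread of 1.62 times within liver and 1.18 times within blood. The log2 fold change was 4.35 ± 0.25 (SE, 95% interval 3.80 to 4.90, edgeR adjusted p = 4.15e-05), the 224th highest of 13458 tested genes. By mean CPM, Icam1 ranked 4623 among the tested genes in blood and 332 in liver. The antisense gene Gm47079 shares 511 exonic bases with the end of Icam1, and it had 41, 159 and 106 counts in the liver libraries and 4, 0 and 0 in blood. These are small beside the 22655 counts of Icam1 over liver and 939 over blood.

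The 300 bases around the RefSeq start site of Icam1 are shown because this gene had the largest difference of the 8, and those of Jaml because it had the largest difference in the other direction. Each runs from 250 bases before the start to 50 after it, read 5′ to 3′ on the gene's own strand (RefSeq, GRCm38.p6), at chr9:21015690-21015989 for Icam1 and chr9:45078933-45079232 for Jaml, both on the forward strand. Capitals mark matches to GGANNTTCC, a form of the NF-kB site, or to TTCNNNGAA, a form of the STAT site, on either strand.
Icam1: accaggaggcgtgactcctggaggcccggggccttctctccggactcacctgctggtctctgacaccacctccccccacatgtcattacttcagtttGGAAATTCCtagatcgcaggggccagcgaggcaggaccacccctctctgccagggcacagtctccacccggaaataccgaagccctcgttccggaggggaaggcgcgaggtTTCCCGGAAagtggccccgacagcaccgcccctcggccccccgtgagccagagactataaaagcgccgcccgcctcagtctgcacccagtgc
Jaml: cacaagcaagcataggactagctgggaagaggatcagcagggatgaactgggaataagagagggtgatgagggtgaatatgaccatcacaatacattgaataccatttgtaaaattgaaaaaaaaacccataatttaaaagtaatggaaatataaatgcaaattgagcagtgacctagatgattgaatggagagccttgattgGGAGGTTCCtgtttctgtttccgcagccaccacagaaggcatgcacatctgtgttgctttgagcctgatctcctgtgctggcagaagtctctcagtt

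In Icam1 the 9 bases GGAAATTCC begin 153 bases before the start site and match GGANNTTCC on both strands, and TTCCCGGAA begins 42 bases before it. In Jaml the match GGAGGTTCC begins 47 bases before the start. GGANNTTCC occurred in 4.26% and TTCNNNGAA in 8.29% of 32817 promoter windows of the same length. Of the 5 genes with an entry, Icam1, Jaml, Ceacam1, Cd44 and Cd177, the first motif was found in 2 and the second in 1. TGANTCA (AP-1 form, in 7.81% of all windows) and TTGCNNAA (C/EBP form, in 10.8%) were found in none of these 5 windows. The motif thus occurred in a gene that was higher and in a gene that was lower, and a match is a description of letters, not of a bound site.

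Icam2 encodes a shorter ligand of LFA-1, best known from endothelium and platelets, on chromosome 11 from 106377656 to 106388075. It was scarce, with 3.66, 5.42 and 3.28 CPM in liver 1, 2 and 3 and 7.11, 2.89 and 5.44 CPM in blood, and the groups overlapped. The difference of -0.32 ± 0.43 on the log2 scale did not pass the test (edgeR adjusted p = 0.598), with a 95% interval from -1.30 to 0.65 that still allows more than a doubling of the blood level over liver. Per kilobase of exon, Icam1 exceeded Icam2 by 38.7 to 70.4 times in the liver libraries and by 1.54 to 3.63 times in the blood libraries. The balance of these related ligands of LFA-1 thus lay further towards Icam1 in every liver library than in any blood library.

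Selplg encodes PSGL-1, the main neutrophil ligand of P-selectin, on chromosome 5 from 113818536 to 113832644 on the reverse strand. Blood 1, 2 and 3 had 1291, 1882 and 1017 CPM, and liver 1, 2 and 3 had 526, 670 and 367 CPM. Every liver library was below every blood library, though blood 2 and liver 2 were the highest of their groups. Selplg was 2.68-fold lower in liver (log2 -1.42 ± 0.30, edgeR adjusted p = 0.00747). Among the tested genes it ranked 82 by mean CPM in blood and 307 in liver, so it stayed an abundant transcript in both.

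Cd44 encodes the receptor for hyaluronan, which also carries sugars that bind E-selectin, on chromosome 2 from 102811141 to 102901665. It was the most abundant of the 8 by CPM, with 2490, 2914 and 1897 CPM in liver 1, 2 and 3 and 2402, 3041 and 2116 CPM in blood 1, 2 and 3. The groups overlapped almost fully, and the log2 difference was -0.05 ± 0.26 (edgeR adjusted p = 0.9). Its 95% interval ran from a 0.65-fold to a 1.44-fold level in liver relative to blood, so that larger differences lie outside it while smaller ones do not. The sign of this small difference changed without liver 3 (0.10) or without blood 2 (0.08). Cd44 ranked 26 among the tested genes in liver and 32 in blood. Counts are summed over isoforms, so a change in the splicing of Cd44, which has many variable exons, would not be seen here. In the ratio per kilobase, Selplg stood at 0.763 to 0.982 of the Cd44 level in the blood libraries and at 0.307 to 0.364 in the liver libraries.

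Jaml encodes the junctional adhesion molecule-like protein, a leukocyte receptor that binds the epithelial and endothelial protein CAR, and lies on chromosome 9 from 45079183 to 45108534. Levels were 472, 295 and 421 CPM in blood 1, 2 and 3 and 99.7, 62.2 and 83.4 CPM in liver 1, 2 and 3. The lowest blood library was thus well above the highest liver library. Jaml was 4.85-fold lower in liver (log2 -2.28 ± 0.25, edgeR adjusted p = 0.000479), the 183rd lowest fold change of the 13458 tested genes. The antisense gene Gm10684, which shares 397 exonic bases with Jaml, was also lower in counts, with 2, 10 and 7 in liver and 41, 23 and 88 in blood, against 3857 and 16218 counts of Jaml over the groups. Cxadr, which encodes CAR, had 3.92 to 9.03 CPM in liver and 2.22 to 7.54 CPM in blood, and did not pass the test (log2 0.45, edgeR adjusted p = 0.529).

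Pecam1 encodes CD31, which binds itself across endothelial junctions and is also made by platelets and leukocytes, on chromosome 11 from 106654217 to 106750628. Liver 1, 2 and 3 had 9.73, 7.59 and 14.3 CPM, and blood 1, 2 and 3 had 15.8, 13.8 and 13.2 CPM. Liver 3 lay within the blood range and the other liver libraries lay below it. The log2 difference of -0.44 ± 0.31 did not pass the test (95% interval -1.12 to 0.25, edgeR adjusted p = 0.302). Within the liver group Pecam1 took the same order as the summed liver endothelial markers, which were 39.2, 25.2 and 54.9 CPM in liver 1, 2 and 3. The macrophage sums (634, 456 and 822 CPM), monocyte sums (1174, 899 and 1345 CPM) and platelet sums (49.3, 44.6 and 55.8 CPM) had that order too. Within the blood group it took the order of the platelet markers, 467, 149 and 63.9 CPM in blood 1, 2 and 3, which the endothelial, macrophage and monocyte sums also had. Single genes gave the largest part of some sums. Itgb3 gave 39, 23.3 and 38 CPM of the platelet sums in liver 1, 2 and 3. Vwf gave 77.3, 23 and 9.8 CPM of the endothelial sums in blood 1, 2 and 3. The order of the sums therefore does not tell these cell types apart, and their part in the Pecam1 counts was not tested.

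Cd177 encodes a GPI-anchored neutrophil protein whose human form binds PECAM1 and displays proteinase 3, on chromosome 7 from 24743983 to 24760311. Its levels were 117, 130 and 155 CPM in blood 1, 2 and 3 and 80.9, 33.1 and 70 CPM in liver 1, 2 and 3. The groups did not overlap, but liver 2 was 2.45 times below liver 1, the widest spread within the liver group among the 8 genes. Cd177 was 2.19-fold lower in liver (log2 -1.13 ± 0.31, edgeR adjusted p = 0.0209). It is the least firm of the 4 calls: leaving out single libraries gave adjusted p-values from 0.0236 to 0.0498, and with liver 3 and blood 1 both left out it was not called (0.0599). Prtn3, encoding proteinase 3, had 48 counts over liver and 30 over blood.

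Ceacam1 encodes an adhesion receptor with inhibitory signalling motifs, made by leukocytes as well as by hepatocytes and bile duct cells, on chromosome 7 from 25461707 to 25477603. It had 188, 160 and 164 CPM in liver 1, 2 and 3 and 151, 119 and 147 CPM in blood 1, 2 and 3. Although every liver library was above every blood library, the 1.23-fold difference did not pass the test (95% interval 0.929 to 1.62, edgeR adjusted p = 0.236). Expected counts were not whole in 5 libraries for Jaml, 4 for Icam1 and 2 for Cd177, as happens when reads are shared with another gene. Those of Ceacam1 were not whole in any of the 6 libraries. Its close relative Ceacam2 had 17 counts over liver and 11 over blood, against 8087 and 5650 for Ceacam1. The gene 4732471J01Rik lies over Ceacam1 on the other strand without shared exonic bases, with 22, 41 and 33 counts in liver and 221, 124 and 157 in blood. Hepatocyte markers summed to 270, 300 and 482 CPM in liver 1, 2 and 3, of which Trf gave 254, 175 and 255 CPM. Biliary epithelial markers summed to 122, 141 and 77.9 CPM in the same libraries. The part of hepatocytes and biliary cells in the Ceacam1 counts was not tested.

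Of the 8 genes, 2 had every liver library above every blood library and 3 had every one below. Groups that do not overlap occurred in 48.5% of all tested genes, so the 5 of 8 are near the background.

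**Figure D2:**
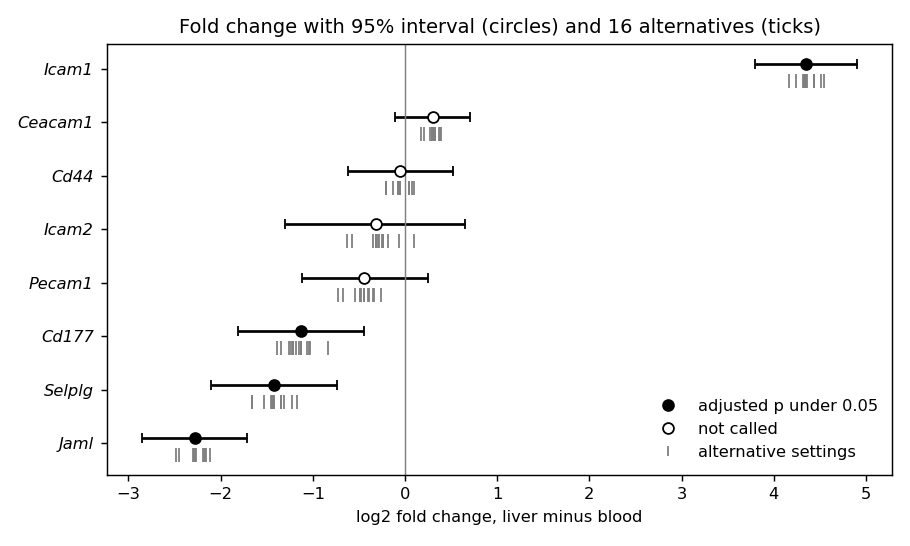
Log2 fold change of liver minus blood for each adhesion gene, with its 95% interval (circles with bars, filled where the adjusted p is under 0.05) and the values under 16 alternative settings (grey ticks). Icam1 at 4.35 stands alone on the right, and Cd177, Selplg and Jaml lie from -1.13 to -2.28, with intervals on 1 side of 0.

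Levels can be compared between genes after division by the exonic length, in CPM per kilobase. In blood the order was Cd44 (372 ± 69.9, SD, n = 3), Selplg (327 ± 103), Jaml (128 ± 29.4), Cd177 (47.2 ± 6.85), Ceacam1 (23.9 ± 3.06), Icam1 (5.37 ± 0.458), Icam2 (2.7 ± 1.12) and Pecam1 (2.3 ± 0.217) CPM per kilobase. Between neighbours in that order, the library ranges overlapped for Cd44 with Selplg and for Icam2 with Pecam1. In liver it was Cd44 (359 ± 75.4), Selplg (122 ± 35.4), Icam1 (110 ± 25.7), Ceacam1 (29.4 ± 2.64), Jaml (26.3 ± 6.05), Cd177 (21.6 ± 8.83), Icam2 (2.16 ± 0.6) and Pecam1 (1.69 ± 0.554) CPM per kilobase. There the ranges overlapped for Selplg with Icam1, for Ceacam1 with Jaml, for Jaml with Cd177 and for Icam2 with Pecam1. Icam1 thus stood below Ceacam1 in blood and beside Selplg in liver, while Cd44 led both orders. As a share of the 8 genes' summed level per kilobase, Icam1 took 14.5% to 18.7% in the liver libraries and 0.52% to 0.648% in blood, and Selplg 16.1% to 20.6% and 30.7% to 41.6%. With the longest transcript as length, Selplg (604) led Cd44 (449) in blood.

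**Figure D3:**
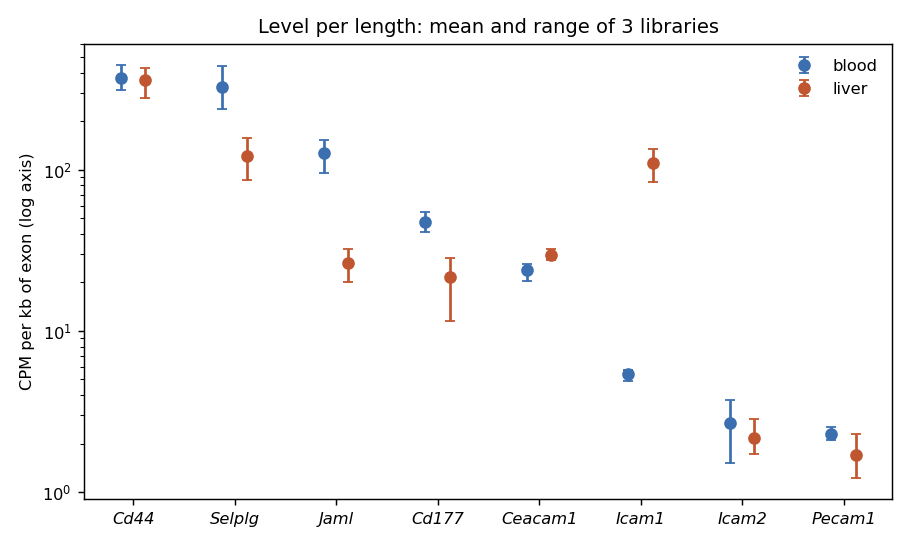
Level per kilobase of exon on a log axis for the 8 genes in the order of their blood means, with points for the mean and bars for the lowest and highest of 3 libraries in blood (blue) and liver (orange). Icam1 rises from 5.37 in blood to 110 in liver, next to Selplg at 122, while the Cd44 points lie side by side.

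Within the groups, the same library numbers were often high for the same gene. For Icam1, Selplg, Jaml, Ceacam1 and Cd44 the order of libraries 1, 2 and 3 by CPM was the same in liver as in blood, that is for 5 of 8 genes against 23.1% of all tested genes. Library 2 was the highest of both groups for Selplg and Cd44 and the lowest of both for Jaml and Ceacam1. The labels do not say that equal numbers share a mouse. With the library number as a block, the calls of the 8 genes were the same.

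The genes whose pattern over the 6 libraries lay nearest were found by the root mean square distance between centred log2(CPM + 1) values, among 6394 protein-coding genes with a mean of at least 10 CPM. For Icam1 they were Spp1 and Traf1, at distances of 0.22 and 0.27, and Spp1 is also among the biliary markers given further on. For Selplg they were Cnn2 (0.07) and Il1rap (0.09), for Jaml Tbc1d10c (0.11) and Slc35a5 (0.15), and for Cd177 Flna (0.16) and Zfp746 (0.20). Cd44 lay nearest to Wdr1 and Arnt and Ceacam1 to Tet3 and Dennd1b, all at 0.06. Icam2 lay nearest to Rpl7l1 and Uqcr10 (both 0.15). Flna shared with Cd177 its low liver 2 value, at 695 CPM against 1216 and 1069 CPM in liver 1 and 3. These distances describe likeness over only 6 libraries, and take in both the difference between liver and blood and the order of libraries within a group. Wdr1 and Arnt, for example, differed little between liver and blood (log2 -0.10 and 0.01) and were highest in library 2 of both groups, as Cd44 was.

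Selectins and the enzymes that build their sugar ligands were lower in 5 of 16 tested genes and higher in 2, with a median log2 fold change of -0.05. Fut7, the fucosyltransferase that completes sialyl Lewis x on PSGL-1, was lower by edgeR's test (log2 -2.55, adjusted p = 0.00894), from 4.74 to 7.8 CPM in blood and 0.392 to 1.81 CPM in liver, and its value was -3.23 without liver 2. Fut4, a related fucosyltransferase, was lower too (log2 -1.38, edgeR adjusted p = 0.00921). Other genes of this group were chosen after their values were seen. They are the sialyltransferase St3gal4 (log2 -1.24, edgeR adjusted p = 0.00395), Glg1, encoding the E-selectin ligand ESL-1 (log2 -0.80, 0.00794), and the tyrosine sulfotransferase Tpst2 (log2 0.60, 0.0487). Selplg was thus lower, as were Fut7 and Fut4. St3gal4 and Glg1 were picked after their values were seen, so they cannot show that the group fell together. Of the other enzymes of this group, Gcnt1, St3gal3, St3gal6, B4galt1 and Tpst1 were not called. With the replicate block, Gcnt1 and St3gal6 were called lower (edgeR adjusted p = 0.0492 and 0.0284).

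The 2 genes called higher, Tpst2 and Podxl (log2 2.60, edgeR adjusted p = 0.0484), were not firm. Podxl had 14 counts over blood, and its call was lost whichever single library was left out (adjusted p 0.0678 to 0.121), with a log2 value of 1.97 without blood 1, and under the replicate block (0.0725). For Tpst2 the same held for every library except liver 3 (0.0725 to 0.178) and under the replicate block (0.0511). Cd24a, a mucin-like P-selectin ligand and the most abundant of this group not called, had 692 to 1019 CPM in liver and 555 to 692 CPM in blood (log2 0.46, adjusted p = 0.141, and 0.0448 with the replicate block).

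Among the receptors of ICAM proteins, their relatives and linkers, 1 of 10 tested genes was higher and 3 lower, with a median of -0.44. Itgal, the alpha chain of LFA-1, had 1051, 789 and 637 CPM in liver 1, 2 and 3 and 1644, 1612 and 1214 CPM in blood (log2 -0.85 ± 0.25, edgeR adjusted p = 0.0291), opposite in sign to its ligand Icam1. Leaving out liver 2, liver 3, blood 1 or blood 2 ended that call (0.066 to 0.0781). The alpha chain of Mac-1, Itgam, had a log2 difference of -0.51, and the shared beta chain Itgb2, chosen after its values were seen, one of -0.65. Neither passed the test (edgeR adjusted p = 0.117 and 0.0524), and both did with the replicate block (0.0296 and 0.0124). Itga4, the alpha chain of VLA-4, was lower (log2 -0.89, edgeR adjusted p = 0.0129, and 0.0525 without liver 1), as was Tln1, which links integrins to actin (log2 -0.86, 0.013). Itgb1, the beta chain that pairs with Itga4, was higher (log2 1.16, edgeR adjusted p = 0.00839). Icam4, an ICAM of red cells, had 0 counts over liver and 3 over blood, and Icam5, an ICAM of neurons, had 67 over liver and 5 over blood, and neither was tested.

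Of the junctional genes, 3 of 9 tested were higher and 0 lower, with a median of 1.35. Pvr, a nectin-like ligand of immune receptors, was higher in all liver libraries, with 26.9 to 34.7 CPM against 0.789 to 2.23 CPM (log2 4.49 ± 0.40, edgeR adjusted p = 0.000157). Cdh5, the cadherin of endothelial junctions and 1 of the liver endothelial markers, had 7.31, 3.13 and 17 CPM in liver and 14 counts over blood. Its log2 value of 4.71 (edgeR adjusted p = 0.00867) became 3.91 without liver 3 and 6.22 without blood 1. Tjp1, a tight junction scaffold, was higher as well (log2 2.70, edgeR adjusted p = 0.0177). It had 13 counts over blood, and leaving out liver 2, blood 2 or blood 3 ended the call (0.0625 to 0.0646). The value was 3.37 without blood 1. F11r, encoding JAM-A and chosen after its values were seen, had 5.02 to 7.83 CPM in liver and 1.68 to 3.77 CPM in blood and did not pass the test (log2 1.17, edgeR adjusted p = 0.0602). It was called in 4 of 16 alternatives, with adjusted p-values of 0.0475 with upper quartile factors, 0.037 with DESeq2, 0.0459 with limma-voom and 0.0385 with the stricter filter.

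CEACAM relatives and their ligand TIM-3 had 1 higher and 2 lower of 4 tested. Havcr2, which encodes TIM-3, a receptor that CEACAM1 binds, was higher, with 63.4 to 77.6 CPM in liver and 3.56 to 6.83 CPM in blood (log2 3.71 ± 0.28, edgeR adjusted p = 8.96e-05). Ceacam10 and Ceacam18 were lower (log2 -1.13 and -1.05, edgeR adjusted p = 0.0217 and 0.0352). The Ceacam10 call was lost without liver 2, liver 3 or blood 1 (0.0568 to 0.0616), and that of Ceacam18 without liver 1, 2 or 3 or blood 3 (0.0633 to 0.114) and with the replicate block (0.055). Ceacam16, with 2.65 to 3.86 CPM in liver and 2.72 to 3.45 CPM in blood, was not called (log2 0.03, edgeR adjusted p = 0.969). Of the phosphatases that bind the inhibitory motifs of PECAM1 and CEACAM1 and of their partners, 0 of 5 tested genes were higher and 1 lower. Ptpn6, encoding SHP-1, had 482 to 802 CPM in liver and 1054 to 1175 CPM in blood (log2 -0.83, edgeR adjusted p = 0.0245), a call lost without liver 1, liver 3, blood 1 or blood 3 (0.0535 to 0.0876). Inpp5d, encoding SHIP1, was not called (log2 0.42, edgeR adjusted p = 0.1), and was with the replicate block (0.0444) and with the stricter filter.

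Around Cd44, 4 of 10 tested genes were higher and 0 lower, with a median of 0.98. Vcan, encoding the hyaluronan-binding proteoglycan versican, had 88.1, 53.8 and 196 CPM in liver 1, 2 and 3 and 13.7, 4.64 and 5.3 CPM in blood (log2 3.83, edgeR adjusted p = 0.00573), with 3.16 without liver 3 and 4.45 without blood 1. Has3, a hyaluronan synthase, had 5.92 to 7.9 CPM in liver and 1.05 to 2.62 CPM in blood (log2 1.83, edgeR adjusted p = 0.0114). Hyal1 and Hyal2, which cut hyaluronan, were higher at low counts (log2 2.35 and 2.43, edgeR adjusted p = 0.0214 and 0.0347), with 36 and 12 counts over blood. Leaving out liver 1, blood 2 or blood 3 ended the Hyal1 call (0.0538 to 0.0877), and leaving out any library but blood 1 ended that of Hyal2 (0.0536 to 0.119). Without blood 1 their values were 3.07 and 3.04. Msn, encoding moesin, which ties CD44 and PSGL-1 to actin, had 2105 to 3549 CPM in liver and 2644 to 4196 CPM in blood and was not called (log2 -0.22, edgeR adjusted p = 0.584).

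Proteases that shed adhesion molecules showed 2 higher and 1 lower of 6 tested. Adam17, which sheds ICAM1 among other surface proteins, had 93.7, 154 and 97.9 CPM in liver and 51.9, 66.9 and 64.2 CPM in blood (log2 0.92, edgeR adjusted p = 0.0154), and was not called without liver 2 or blood 1 (0.0522 to 0.0698). Mmp14, a membrane protease that cuts CD44, had 7.83, 7.83 and 7.85 CPM in liver and 11 counts over blood (log2 4.78, edgeR adjusted p = 0.00196), with 5.91 without blood 1 and 4.13 without blood 3. Mmp9 was lower (log2 -0.93, edgeR adjusted p = 0.04), a call lost without liver 1, liver 3, blood 2 or blood 3 (0.0869 to 0.127). Adam8, the most abundant not called, had 596 to 973 CPM in liver and 780 to 1407 CPM in blood (log2 -0.37, edgeR adjusted p = 0.353). Over all 7 related groups, 13 of 60 tested genes were higher and 12 lower, that is 41.7% called against the 31.6% of all tested genes. Without liver 2 or without blood 3, 8 were called higher, and without liver 1 or liver 3, 8 were called lower.

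**Figure D4:**
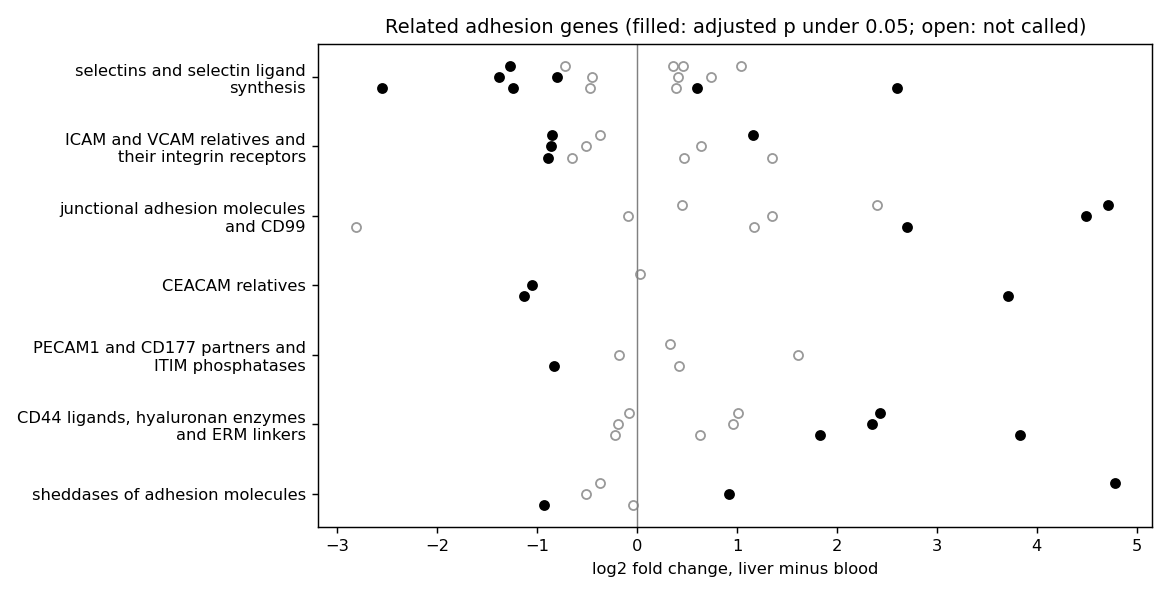
Log2 fold change of liver minus blood for the 60 tested genes of the 7 related adhesion groups, 1 point per gene, filled where the adjusted p is under 0.05. The filled points of the junctional and CD44 groups lie to the right of 0, while 5 of the 7 filled points of the selectin group lie to the left.

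Markers of neutrophils and of other cells moved with the groups too. The 10 neutrophil markers summed to 7113 to 12404 CPM in liver and 21140 to 31783 CPM in blood, and 9 of 10 were called lower, with a median log2 fold change of -1.52, beside -1.42 for Selplg, -1.13 for Cd177 and -2.28 for Jaml. The Jaml value lay below that of each of the 10 markers, the lowest of which was Retnlg at -2.01. Monocyte markers summed to 899 to 1345 CPM in liver and 130 to 247 CPM in blood. Of them, 6 of 8 tested were called higher, in the same direction as Icam1. Fn1 gave the largest part of the liver sums, 542 to 856 CPM. Ly6c2 (log2 -0.34) and Ace (log2 2.15) were not called. The part of neutrophils or monocytes in these differences was not tested. In bulk RNA, fewer cells of a type cannot be told from less RNA per cell. Liver endothelial markers were higher in 4 of 5 tested, and summed to 25.2 to 54.9 CPM in liver and 13.3 to 80.7 CPM in blood, where Vwf, also made by platelets, gave 77.3 CPM in blood 1. Kupffer cell and macrophage markers were higher in 4 of 9 tested (456 to 822 CPM against 328 to 499 CPM). The largest part of these sums was Csf1r, with 292 to 401 CPM in liver and 287 to 351 CPM in blood, not called. Clec4f, called higher, had 5.12 to 59.8 CPM in liver and at most 0.359 CPM in blood, while Cd5l, C1qa, C1qb and C1qc were not called. Hepatocyte markers were higher in 5 of 6 (270 to 482 CPM against 108 to 151 CPM). Trf gave the largest part of these sums, with 254, 175 and 255 CPM in liver 1, 2 and 3 and 108 to 146 CPM in blood. Alb had 7.25, 73.2 and 148 CPM in liver 1, 2 and 3 and at most 2.44 CPM in blood. Of all tested genes, 17.4% were called higher and 14.2% lower. Platelet markers were lower in 4 of 8 (44.6 to 55.8 CPM against 63.9 to 467 CPM) and B cell markers in 2 of 8 (73.2 to 86 CPM against 58.1 to 281 CPM). T and NK cell markers were lower in 1 of 5 (4.22 to 13.6 CPM against 6.31 to 10.5 CPM). Of the 8 biliary epithelial markers, Krt19, Sox9, Cldn4 and Cftr had 0 counts over blood, and the list had 1 higher and 2 lower of 3 tested (77.9 to 141 CPM against 97.2 to 208 CPM). No marker of the other lists had 0 counts over a whole group.

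**Figure D5:**
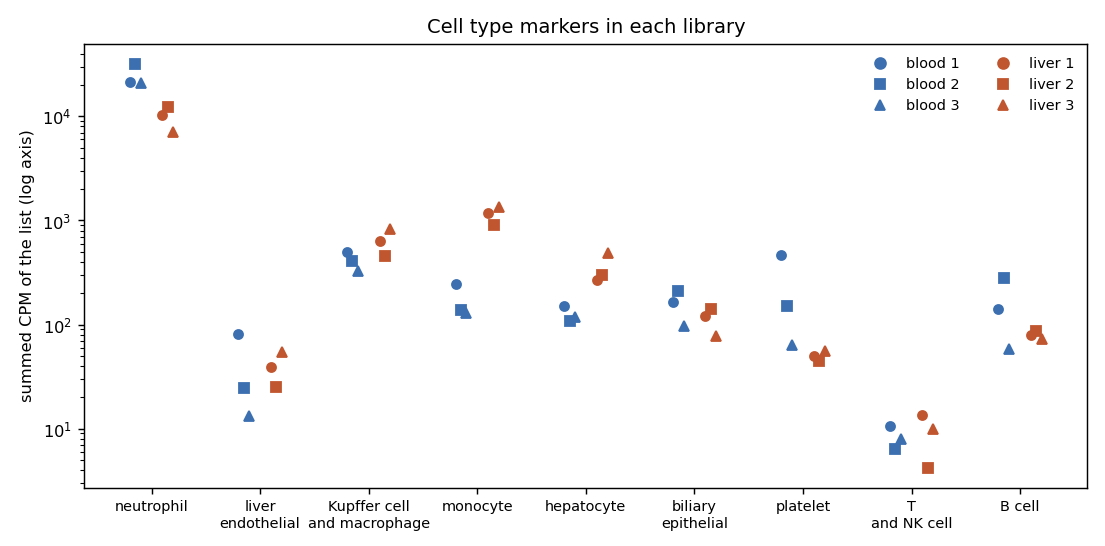
Summed CPM of each cell type's marker list on a log axis, 1 point per library, blood in blue and liver in orange. The neutrophil sums lie above all others in every library, the monocyte sums of liver (899 to 1345) lie above those of blood, and blood 1 stands out for platelet markers at 467.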

How the data were processed

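The deposited files hold expected counts for each gene, per the file headers. The submitters' processing notes name STAR, RSEM, FastQC 0.11.5, limma and the build GRCm38, and per the labels' protocols the library kit keeps strand. Whether counting used strand is not stated. These values were rounded, and filterByExpr (minimum count 10, total 15) left 13458 genes. After TMM scaling, edgeR 4.0.16 in R 4.3.3 compared liver with blood (quasi-likelihood, robust), and Benjamini-Hochberg adjusted values under 0.05 were called. The standard error comes from the F statistic, and CPM use TMM-scaled library sizes. A count of 3 is 0.181 to 0.263 CPM. This floor covers counting error only. The labels do not say that libraries of a group came from separate mice, so the p-values reflect only how much these libraries vary, which may be technical. Lengths, coordinates and overlaps come from GENCODE M21 (GRCm38), which matched 98.9% of the rows. Where a symbol had several rows, the row with the largest total was used. On simulated data the fit recovered planted fold changes in size, but missed many calls, most of all at the smaller planted change.

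The labels give both groups the numbers 1 to 3. Deviations from the group means correlated between equal numbers (r = 0.19, 0.426 and 0.282 over 6791 genes), more than between other numbers. As an alternative, a replicate block paired equal numbers, a pairing that rests on these data and not on the labels. Its p-values may be too small, because the same counts gave the pairing. The other alternatives were DESeq2 1.42.0, limma-voom (limma 3.58.1), other scalings and filters, and each library left out. Related genes are named by a rule: up to 4 called genes per list by size of the log2 fold change and the most abundant gene not called. The members and lists were chosen with earlier results of these data known. Cemip2, a listed gene, was not found by that symbol. Protein sequences were not used here. A few results that the naming rules would have given are not reported here.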

Additional observations from a re-analysis of the deposited data

How the results depend on the processing

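The calls of Icam1, Selplg and Jaml held in all 16 alternatives, with log2 fold changes of 4.16 to 4.54, -1.66 to -1.17 and -2.48 to -2.12. Cd177 was called in 15 of 16, and lost the call with liver 3 and blood 1 both left out, an alternative chosen after seeing the data (log2 -1.34, adjusted p = 0.0599). Icam2, Pecam1, Ceacam1 and Cd44 were called in none. In that alternative the log2 fold change of Icam2 became 0.10 and that of Cd44 0.04, and 7 related genes were called lower in place of 12. Over all genes it called 1195 lower in place of 1916. Cd44 also changed sign with upper quartile factors (0.04) and with the stricter filter (0.04), and ran from -0.21 to 0.10 when single libraries were left out. Of the related genes, 8 to 12 were called higher when single libraries were left out, in place of 13. Ceacam16, near 0 throughout, had -0.00 with limma-voom, -0.08 with liver 3 and blood 1 left out, and -0.12 to 0.14 when single libraries were left out. The replicate block gave 1 higher and 3 lower of the 8 genes, with -1.42 for Selplg and -1.21 for Cd177, and 15 and 16 related genes called higher and lower. It changed no call of the 8 genes, and the calls of related genes it changed stand beside them in the report where the gene is named. With the longest transcript as length, the levels in CPM per kilobase became 188 for Icam1, 3.21 for Icam2, 225 for Selplg, 33.2 for Jaml, 3.07 for Pecam1 and 46.7 for Ceacam1 in liver. In blood they became 9.24, 4.02, 604, 161, 4.15 and 38 for the same genes and 449 for Cd44. With a pseudocount of 0.25, 1 of the 2 genes nearest to Icam1 was shared. The cause of these shifts was not tested, except that the shorter length raises each level. Of the 8 genes Icam2 had the fewest counts, 197 over liver and 213 over blood.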
